A study of Rattus norvegicus with 9 samples.

Results

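The transcriptome of NRK-49F cells given the compound YWCH-4A was compared with that of cells given the compound YEXX-2A, both in the presence of TGF-β1. NRK-49F is a widely used rat fibroblast line of kidney origin, listed as wild type in the labels. The 2 groups held 3 RNA-seq libraries each, 6 of the 9 libraries of the series, and were chosen by their labels alone. The YEXX-2A group is TGF-β1 plus YEXX-2A and the YWCH-4A group is TGF-β1 plus YWCH-4A, so the cytokine was common to both and cells without it were not analysed here. A 48 h period with TGF-β1 is given in the labels, whereas the dose of either compound and the time of its addition are not, so whether the doses match cannot be told. Both agents are known here by code name alone and no structural difference between them can be named. The 3 libraries of TGF-β1 with vehicle were kept out of the test and serve only as a level to set beside the compounds. The series is described as having biological replicates, but nothing says how they were set up, so p-values take in only the variation among the libraries at hand.

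TGF-β1 binds a pair of receptor kinases that phosphorylate SMAD2 and SMAD3, and in fibroblasts it turns on collagens, fibronectin, integrins and the smooth muscle proteins of the myofibroblast. NF-κB is a family of transcription factors held in the cytoplasm by inhibitors such as IκBα. On release it induces chemokines, cytokines, adhesion molecules and its own inhibitors, and fibroblasts use it to recruit leukocytes. ATF4 is the factor through which cells short of amino acids, or with other stress on translation, raise amino acid import and synthesis. NRF2 drives antioxidant genes, SREBP2 the cholesterol synthesis genes, and interferons the antiviral genes known as interferon-stimulated genes.

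Library totals ran from 13675880 to 21923706 counts, and of 22050 genes listed 11456 passed the filter on low counts, 3305 had a count but were not tested and 7289 had none in the 6 libraries. Levels are given as CPM, counts scaled to a common library size. A gene was called at an edgeR adjusted p under 0.05, and every fold change is YWCH-4A over YEXX-2A. In a principal component analysis the groups separated along the first axis (70.8% of the variance), and along the second (11.2%) YEXX-2A replicate 3 lay apart at -25.3. The biological coefficient of variation was 7.38% among the YEXX-2A libraries and 3.66% among the YWCH-4A libraries, so the YEXX-2A cultures varied more. Of the fibroblast markers, Col1a1, Vim (6363, 6779 and 6847 CPM with YEXX-2A and 3076, 3288 and 3328 CPM with YWCH-4A), Pdgfra and Pdgfrb were abundant, while Dcn, Fap, Nt5e and Cd248 had at most 11 reads in a group and Tcf21 had none. Of 14 leukocyte markers 5 were at 0 in all 6 libraries (Cd3e, Cd3g, Ms4a1, Nkg7 and Tyrobp), Ptprc had 2 reads with YEXX-2A and 1 with YWCH-4A, and their summed level (43.1 to 47.2 CPM with YEXX-2A, 68.2 to 75.9 with YWCH-4A) was nearly all Cd68. The kidney epithelial list summed to 1565 to 1655 CPM with YEXX-2A and 947.7 to 996.9 with YWCH-4A, mostly the keratin Krt8 (1582, 1527 and 1615 CPM with YEXX-2A and 959.6, 923 and 973 CPM with YWCH-4A), with 7 of 16 markers at 0. Endothelial markers summed to 32.6 to 37.96 CPM and 27.7 to 28.9 CPM, with Cldn5 at 0, and pericyte markers to 15.2 to 18.8 CPM and 29.4 to 31.7 CPM. The part of these markers in the results was not tested, and in bulk RNA fewer cells of a kind and less RNA per cell cannot be told apart.

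Expression differed between the compounds across much of the transcriptome. With YWCH-4A, inflammatory genes and matrix metalloproteinases were higher, among them Mmp13, Csf3, Mmp9, Cxcl2 and Nos2. Collagens, contractile genes and amino acid stress genes were lower, among them Col3a1, Tagln and Slc7a11, and so was the integrin gene Itga11. Of 11456 genes 5903 were called (51.5%), 2914 higher (25.4%) and 2989 lower (26.1%). Most of these changes were small: the smallest called fold change was 1.07, the median standard error of a log2 fold change was 0.08, and 790 genes (6.9%) changed at least 2-fold, 364 higher (3.18%) and 426 lower (3.72%). CPM values of the groups did not overlap for 6760 genes (59%). Scaled by library totals alone, 64.7% of called genes were higher in place of 49.4%, and with limma on FPKM 66.1%, so the balance of small rises and falls depends on the scaling.

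**Figure D1:**
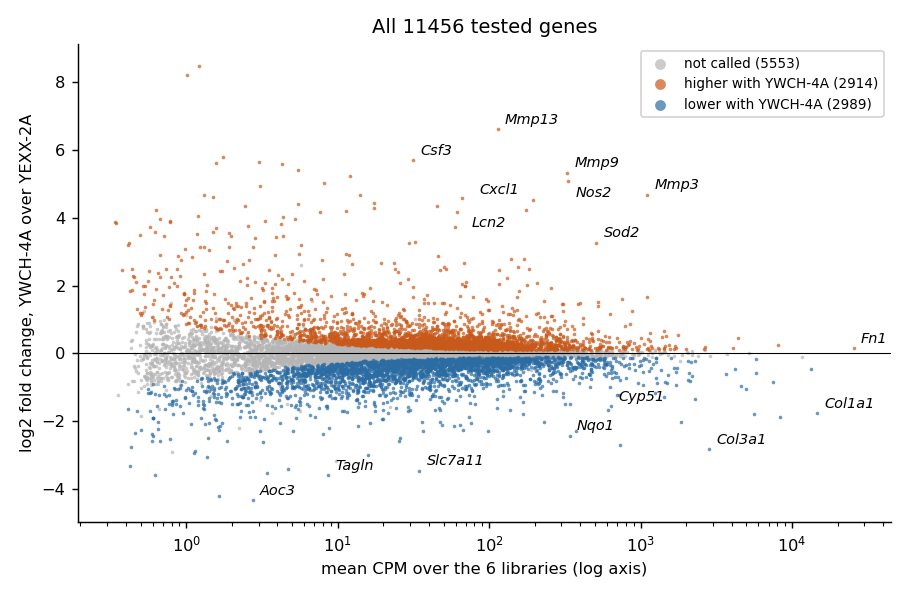
Log2 fold change of YWCH-4A over YEXX-2A (vertical axis) against the mean CPM over the 6 libraries (horizontal axis, log scale), with 1 point per tested gene and colours for the 2914 genes called higher and the 2989 called lower. The named genes lie far above or below the band of small changes, while Fn1, the most abundant of those named, lies at 0.15.

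Large changes were not symmetric. At 1.5-fold or more, falls outnumbered rises (1149 against 745), whereas at 4-fold or more 134 genes rose and 56 fell, at 8-fold 66 rose and 9 fell, and at 16-fold 32 rose and 2 fell. Without YEXX-2A replicate 3, the library that stands apart, 391 genes were at least 2-fold higher and 543 lower. The balance at 2-fold was reversed under other processing. With library totals alone 419 genes were at least 2-fold higher and 329 lower, and with limma on FPKM 218 and 116. The count of 8-fold falls rested on few genes and ran from 8 to 21 with 1 library left out, being 21 without YWCH-4A replicate 2, 17 without YWCH-4A replicate 1 and 15 without YEXX-2A replicate 3, against 68 to 79 for 8-fold rises. With no filter on low counts 115 genes rose and 61 fell by at least 8-fold, so the asymmetry at this size depends on the filter. Genes of long transcripts were slightly lower with YWCH-4A: with genes ranked by length into 10 bins, the median log2 fold change was -0.12 in the longest and between -0.04 and 0.04 in the others, and the part of length in the results was not tested.

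**Figure D2:**
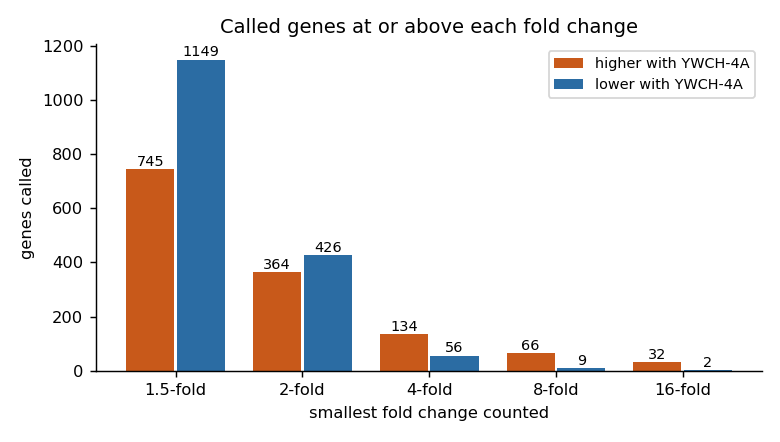
Number of genes called (vertical axis) at or above each fold change (horizontal axis), for genes higher and lower with YWCH-4A. In this fit falls are more numerous at 1.5-fold and 2-fold, and rises from 4-fold upward. The excess of falls at 2-fold is reversed with library totals alone or with limma on FPKM.

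The fibrillar collagens, whose triple helices bundle into the tensile fibres of scar, included the most abundant genes to differ by at least 2-fold, those of collagen I. All 7 tested gene models of this list fell with YWCH-4A, 5 of them by at least 2-fold, with a median log2 fold change of -1.76 against -0.0008 for all genes, and their summed level was 53720 CPM with YEXX-2A and 15790 CPM with YWCH-4A. Col3a1, the collagen III chain, measured 4677, 4962 and 5285 CPM with YEXX-2A and 651, 712 and 747 CPM with YWCH-4A (log2 change -2.82 with SE 0.06, adjusted p = 1.92e-14 by edgeR). Every YEXX-2A library thus held over 6 times the Col3a1 level of any YWCH-4A library, and the vehicle libraries were higher still, at 8256 to 10280.00 CPM. Col1a1, which encodes the α1 chain of collagen I, measured 21626, 22329 and 23931 CPM with YEXX-2A and 6408, 6555 and 7012 CPM with YWCH-4A (log2 change -1.76 with SE 0.05, adjusted p = 2.31e-13 by edgeR), again without overlap. Col1a2, the partner chain, has 2 gene models in the table, and summed they measured 20296, 21708 and 22865 CPM with YEXX-2A and 5819, 6027 and 6432 CPM with YWCH-4A (log2 change -1.83 with SE 0.06, adjusted p = 1.51e-13 by edgeR). Collagen V, which nucleates collagen I fibrils, fell less, with Col5a1 at -1.18, Col5a2 at -0.82 and Col5a3 at -0.67. The 95% intervals of Col3a1 (-2.95 to -2.69) and Col1a1 (-1.88 to -1.65) on the log2 scale did not overlap, so the collagen III chain fell by more than the collagen I chain.

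Of 12 other collagens 10 fell and 2 rose (median -0.69). Col12a1, a collagen that decorates fibrils, was at -1.23, the microfibrillar Col6a1 at -0.82, and the basement membrane chains Col4a1 and Col4a5 at -0.34 and -1.01. The risers were Col18a1 (+1.25), the parent of endostatin, and Col7a1 (+0.68), the anchoring fibril collagen. Genes that modify and crosslink collagen fell for 15 of 22 genes and rose for 4. The lysyl oxidases Loxl2 (-1.11) and Lox (-0.84), the prolyl hydroxylase P4ha1 (-0.90) and the collagen chaperone Serpinh1 (-0.53) were among the falls. In the opposite direction, the transglutaminase Tgm2 measured 15.2, 14.3 and 14.5 CPM with YEXX-2A and 87.3, 84.2 and 86.4 CPM with YWCH-4A (log2 change 2.55 with SE 0.06, adjusted p = 1.92e-14 by edgeR), a rise that no library of the other group approached, and P4hb, the shared subunit of the prolyl hydroxylases, rose by 0.47.

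Matrix glycoproteins and proteoglycans fell for 23 of 37 genes and rose for 7 (median -0.49). Ccn2, or connective tissue growth factor, measured 2851, 2893 and 3126 CPM with YEXX-2A and 669, 727 and 775 CPM with YWCH-4A (log2 change -2.03 with SE 0.06, adjusted p = 2.6e-13 by edgeR), with the vehicle libraries at 3359 to 3679 CPM. Its relative Ccn1 went down by a similar amount (-2.02), as did, to a lesser degree, the collagen-binding Sparc (-1.29), the elastic fibre genes Fbln5 (-0.96), Mfap5 (-1.35) and Fbn1 (-0.54), thrombospondin Thbs1 (-0.85) and periostin, Postn (-0.87). Fibronectin did not follow the collagens. Fn1 measured 24123, 22849 and 25618 CPM with YEXX-2A and 26178, 26074 and 28557 CPM with YWCH-4A (log2 change 0.15 with SE 0.05, adjusted p = 0.0261 by edgeR), a difference of 0.04 to 0.27 on the log2 scale (95% interval), and this call was lost without YEXX-2A replicate 1 (adjusted p = 0.0983), YEXX-2A replicate 2 (0.142) or YWCH-4A replicate 3 (0.146) with the same edgeR test. Tenascin-C, Tnc (0.04, interval -0.06 to 0.14), and the laminin chain Lamc1 (-0.04, interval -0.14 to 0.05) were not called, and Vcan, a hyaluronan-binding proteoglycan, rose by 0.39, a call that was lost with all 9 libraries in the fit (edgeR adjusted p = 0.0604).

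Contractile genes of smooth muscle type fell for 13 of 18 genes and rose for 2. Tagln, an actin-binding protein and a common marker of myofibroblasts, measured 16.5, 14.7 and 16.5 CPM with YEXX-2A and 1.69, 0.962 and 1.29 CPM with YWCH-4A (log2 change -3.58 with SE 0.17, adjusted p = 5.25e-11 by edgeR). Each YWCH-4A library held under 2 CPM and each YEXX-2A library over 14, against 50.7 to 57.8 CPM in the vehicle libraries. Itga11, the integrin subunit through which fibroblasts grip collagen I, measured 613, 615 and 649 CPM with YEXX-2A and 119.8, 129 and 134 CPM with YWCH-4A (log2 change -2.29 with SE 0.05, adjusted p = 4.5e-15 by edgeR). Acta2, the α-smooth muscle actin gene that usually defines the myofibroblast, separated the compounds far less: it measured 128, 130.3 and 129.8 CPM with YEXX-2A and 106, 108 and 107 CPM with YWCH-4A (log2 change -0.27 with SE 0.04, adjusted p = 6.07e-05 by edgeR), and the vehicle libraries held 300.2 to 395 CPM. The Acta2 call was lost when the vehicle libraries joined the fit (adjusted p = 0.0544 with edgeR on all 9 libraries). Cald1, caldesmon, was at -1.23 and Tpm1, a tropomyosin, at -0.61, while Myh11, the smooth muscle myosin heavy chain, rose by 1.76 from a low level (4.55, 5.82 and 4.96 CPM with YEXX-2A and 18.6, 18.3 and 14.8 CPM with YWCH-4A). Among integrins the collagen and laminin receptors also changed in both directions: Itga7 rose by 3.27, Itga2 by 1.48, Itga1 by 1.40 and the fibronectin receptor subunit Itga5 by 0.87, and Itga6 fell by 0.77.

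The TGF-β pathway itself showed no common direction, with 9 of 24 genes higher and 9 lower (5 lower with library totals alone or with limma on FPKM). Among ligands Tgfb1 rose by 0.67 whereas Tgfb2 and Tgfb3 fell by 1.04 and 0.80. Ltbp1, which stores latent TGF-β in the matrix, fell by 1.01, and Lrrc32, which holds latent TGF-β at the cell surface, rose by 1.69 (32.7, 28.2 and 30.0 CPM with YEXX-2A and 96.0, 100.4 and 96.4 CPM with YWCH-4A). Among receptors Tgfbr3 was at 0.82, Tgfbr2 at 0.36 and Tgfbr1 at -0.44, the last of which was not called with all 9 libraries in the fit (edgeR adjusted p = 0.0939). Smad4, the shared SMAD, was at -0.04 with a 95% interval of -0.16 to 0.08. YAP and TEAD targets were called at near the share of all genes (57.1% against 51.5%), 4 higher and 4 lower of 14. Ccn2 and Ccn1 were the large falls, and Amotl2 (0.97) and F3 (0.77) were among the rises.

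Matrix proteases included some of the largest rises. Of 25 proteases and inhibitors 15 rose, 7 of them at least 2-fold, and 8 fell. Mmp3, stromelysin 1, which cleaves proteoglycans and activates other metalloproteinases, measured 83.5, 81.3 and 85.5 CPM with YEXX-2A and 2261, 2064 and 2046 CPM with YWCH-4A (log2 change 4.67 with SE 0.05, adjusted p = 3.08e-18 by edgeR). Its lowest YWCH-4A library lay over 20 times above the highest YEXX-2A library. Mmp13, a collagenase that cuts fibrillar collagen, measured 1.83, 2.57 and 2.74 CPM with YEXX-2A and 248, 217 and 212 CPM with YWCH-4A (log2 change 6.60 with SE 0.11, adjusted p = 3.94e-14 by edgeR), and Mmp9, a gelatinase, measured 16.2, 15.4 and 16.6 CPM with YEXX-2A and 671, 595 and 651 CPM with YWCH-4A (log2 change 5.32 with SE 0.06, adjusted p = 3.08e-18 by edgeR). Mmp10 rose by 4.58, the macrophage elastase Mmp12 by 3.88 from a level near 0 and the aggrecanase Adamts4 by 2.79. Mmp2 and Mmp14, which fibroblasts carry at high levels, rose little (0.18 and 0.43), and Mmp2 was not called with all 9 libraries in the fit (edgeR adjusted p = 0.201). The falls included Adamts9 (-1.77), Adam19 (-1.25), Adamts1 (-1.23) and the inhibitors Timp3 (-0.80) and Timp2 (-0.35). Timp1, a secreted metalloproteinase inhibitor, was not called and measured 104, 109.8 and 97.3 CPM with YEXX-2A and 99.7, 117 and 103 CPM with YWCH-4A (log2 fold change 0.04, interval -0.10 to 0.17).

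**Figure D3:**
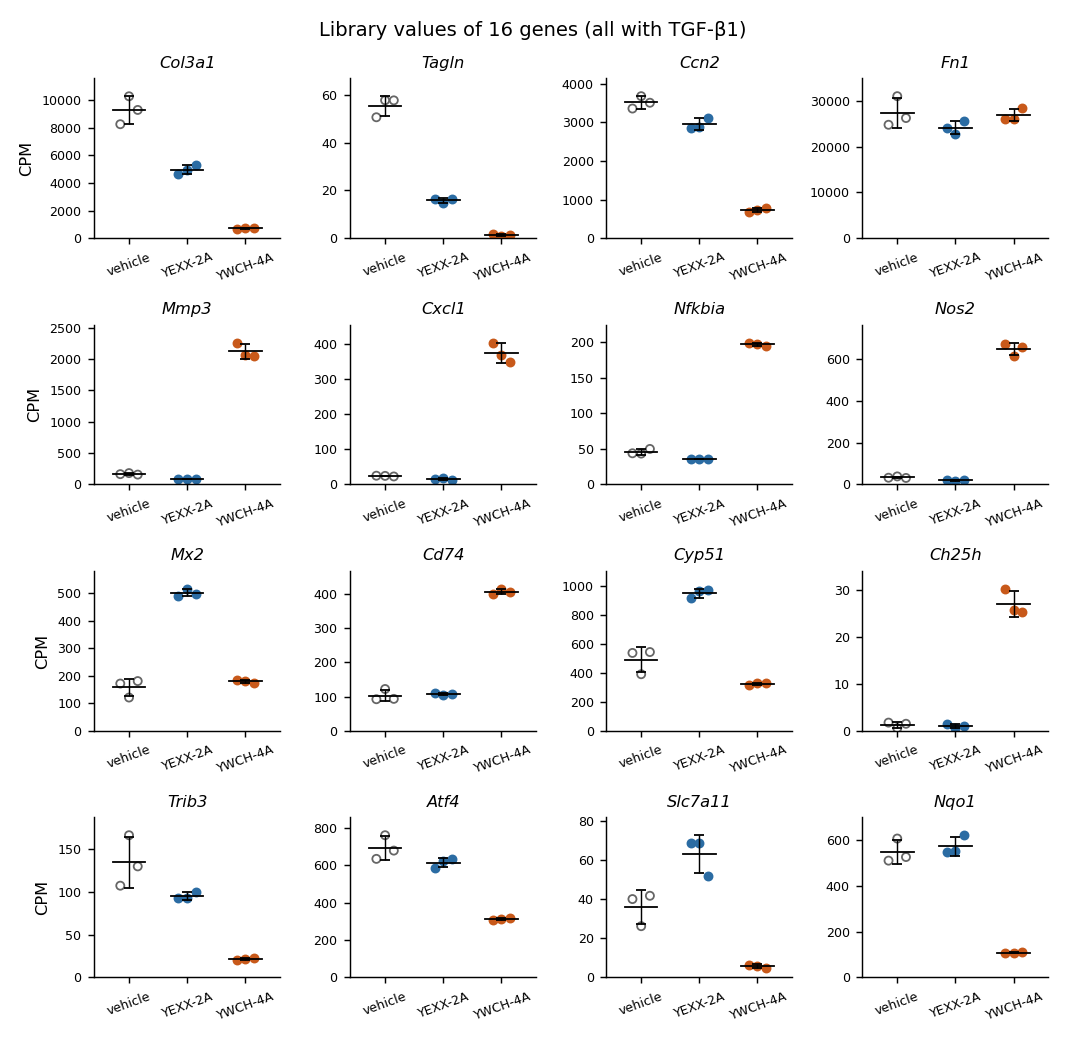
CPM in each library (vertical axes, each starting at 0) for 16 genes in the vehicle (open circles), YEXX-2A and YWCH-4A groups, with bars at the mean and SD of 3 libraries. The YEXX-2A and YWCH-4A points do not overlap in any panel, and the vehicle points lie beside YEXX-2A for Cxcl1, Nos2 and Cd74 and beside YWCH-4A for Mx2.

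Chemokines and cytokines rose almost as a block. Of 14 tested chemokines 12 rose, 11 of them at least 2-fold, and 2 fell (median 2.07). All 16 tested cytokines and colony-stimulating factors, of 23 listed, rose, 13 at least 2-fold (median 1.83). Over all tested genes 25.4% were called higher. Members scarce with YEXX-2A, such as Cxcl2, Cxcl3 and Il1b, entered the test only through the YWCH-4A libraries. Such members could count only as rises, so the counts lean that way. Cxcl1, a neutrophil attractant, measured 16.1, 18.1 and 14.0 CPM with YEXX-2A and 405, 368 and 350.3 CPM with YWCH-4A (log2 change 4.53 with SE 0.08, adjusted p = 6.12e-13 by edgeR), with no overlap. Cxcl2, which binds the same receptor, measured 0.516, 0.576 and 0.839 CPM with YEXX-2A and 26.9, 22.3 and 21.3 CPM with YWCH-4A (log2 change 5.24 with SE 0.18). Cxcl3 measured 0.609, 0.472 and 0.305 CPM with YEXX-2A and 17.5, 15.2 and 14.8 CPM with YWCH-4A (log2 change 5.01 with SE 0.19). Both were under 1 CPM in every YEXX-2A library, and since these chemokines are close copies their reads could be shared. Both passed the filter on low counts only through the YWCH-4A libraries, so their values are given as descriptions. The monocyte attractants were already present with YEXX-2A and rose further. Ccl2 measured 373, 417 and 334 CPM with YEXX-2A and 1134, 1202 and 1059.8 CPM with YWCH-4A (log2 change 1.59 with SE 0.08, adjusted p = 7.15e-07 by edgeR), and Ccl7 rose by 2.08. Cx3cl1, or fractalkine, rose by 4.36 and the T cell attractant Ccl5 by 2.05. The exceptions were Cxcl10 (-0.91), an interferon-induced chemokine, and Cxcl13 (-0.95).

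Among the cytokines, Csf1, the macrophage growth factor, was the most abundant, at 539, 514 and 525 CPM with YEXX-2A and 1679, 1629 and 1688 CPM with YWCH-4A (log2 change 1.66 with SE 0.04, adjusted p = 2.47e-14 by edgeR). Csf3, which drives neutrophil production, rose most, at 1.55, 0.576 and 1.52 CPM with YEXX-2A and 69.5, 57.5 and 58.6 CPM with YWCH-4A (log2 change 5.69 with SE 0.20, adjusted p = 2.3e-08 by edgeR). Csf2 rose by 4.17, the alarmin Il1a by 4.34, Lif by 1.60 and the interleukin 1 antagonist Il1rn by 1.66. Il1b had 3 reads in the YEXX-2A libraries and 65 in the YWCH-4A libraries, a ratio of 21.1 (exact 95% interval 6.91 to 105, counting error only). It passed the filter on low counts only through the YWCH-4A libraries. Il6, in contrast, rose by only 0.66 (4.78, 4.87 and 3.96 CPM with YEXX-2A and 6.77, 8.07 and 6.83 CPM with YWCH-4A). Receptors of this system rose for 15 of 28 genes and fell for 3: Tlr2, the receptor for bacterial lipoproteins, rose by 4.01 and the interleukin 6 receptor subunits Il6st and Il6r by 1.09 and 1.21, whereas Il1rl1, the receptor for interleukin 33, fell by 1.66 and Tlr4 was not called (0.04, interval -0.18 to 0.27).

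Subunits, inhibitors and direct targets of NF-κB rose for 23 of 26 members, and no member fell, 18 of them at least 2-fold (median 1.45). Nfkbia, which encodes IκBα, measured 35.5, 36.0 and 36.0 CPM with YEXX-2A and 199, 198 and 194 CPM with YWCH-4A (log2 change 2.46 with SE 0.05, adjusted p = 1.13e-15 by edgeR). The feedback inhibitor Tnfaip3, or A20, rose by 2.46, the RNase gene Zc3h12a by 2.47 and Nfkbiz by 2.86. Sod2, the mitochondrial superoxide dismutase and a frequent NF-κB target, measured 98.9, 98.5 and 91.5 CPM with YEXX-2A and 953, 929 and 892 CPM with YWCH-4A (log2 change 3.26 with SE 0.05, adjusted p = 3.76e-17 by edgeR), with the vehicle libraries at 109 to 119 CPM. The adhesion molecules Vcam1 and Icam1, which hold leukocytes at a surface, rose, Vcam1 by 2.39 and Icam1 from 211, 193 and 220.1 CPM with YEXX-2A and 582, 577 and 606 CPM with YWCH-4A. Subunit genes rose in a graded way: Relb by 1.49, Nfkb2 by 1.18, Nfkb1 by 0.97 and Rela by 0.50, and Rel, the least abundant of the 5, was not called (-0.09, interval -0.63 to 0.45). Without YEXX-2A replicate 1, 1 member of the list was called lower. In RefSeq promoters of assembly GRCr8, of which 250 bases before and 50 after the start were searched on both strands, a κB site (the NF-κB consensus) was present in 52.2% of 23 list promoters, in 60% of 10 chemokine promoters and in 9.82% of 8981 promoters of all tested genes. The stretches below show the matches, in capitals, of 4 genes that rose, each read 5′ to 3′ on the gene's own strand and lying upstream of the start.
Cxcl1: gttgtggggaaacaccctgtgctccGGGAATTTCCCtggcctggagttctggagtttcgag
Cxcl2: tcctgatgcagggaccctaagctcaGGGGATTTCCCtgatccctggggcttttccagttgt
Vcam1: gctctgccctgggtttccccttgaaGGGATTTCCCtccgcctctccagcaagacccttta
Irf1: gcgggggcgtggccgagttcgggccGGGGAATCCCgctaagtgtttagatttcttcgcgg
They lie at chr14:17479370-17479430 (Cxcl1, minus strand), chr14:17467294-17467354 (Cxcl2, minus strand), chr2:206742842-206742901 (Vcam1, minus strand) and chr10:38417845-38417904 (Irf1, plus strand). Counted from the start, the matches begin at -84, -74, -93 and -65. A match is a description of letters and was not tested for binding. Over all genes called at least 2-fold higher a κB site was present in 18.8% of 255 promoters, and over those at least 2-fold lower in 10.6% of 293. The AP-1 site and the interferon response element were about as frequent in either direction. The AP-1 site, bound by FOS-JUN dimers, was in 9.02% of the higher and 8.19% of the lower set (4.8% of all promoters). The interferon response element was in 4.71% and 4.78% (2.95% of all). The CArG box, bound by SRF, was in 2 of 255 higher (0.784%) and 11 of 293 lower promoters (3.75%), against 1.36% of all. The ATF4 element core TGATGNAA was in 2.75% of the higher and 4.44% of the lower set (1.87% of all). Some other lists held the motif of their factor less often. The sterol element TCACNCCAC was in 0 of 17 promoters of cholesterol synthesis genes (1.12% of all promoters). The CArG box was in 1 of 14 of contractile genes (7.14%, against 1.36%). The antioxidant element (TGAC, any 3 bases, GCA) was in 3 of 28 of NRF2 targets (10.7%, against 2.63%). The interferon list, described below, held its element more often.

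**Figure D4:**
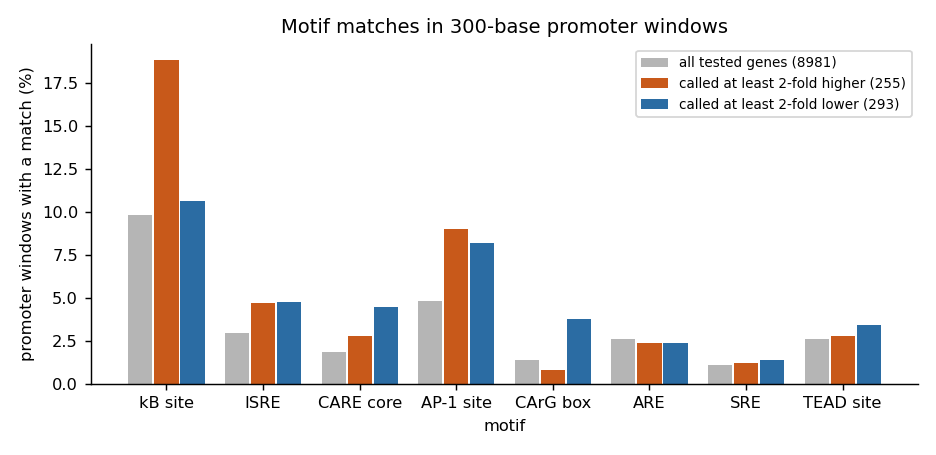
Share of promoter windows (vertical axis, percent) with at least 1 match to each motif (horizontal axis), for all tested genes, genes called at least 2-fold higher and genes called at least 2-fold lower with YWCH-4A. The κB site is in 18.8% of the promoters of the higher genes against 9.82% of all. The CArG box of SRF is in 3.75% of those of the lower genes against 1.36% of all. The AP-1 site is more frequent in both sets (9.02% and 8.19%) than in all promoters (4.8%).

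Of 16 genes of nitric oxide and prostaglandin synthesis 9 rose, 7 of them at least 2-fold, and 3 fell. Nos2, the inducible nitric oxide synthase, measured 20.5, 17.1 and 20.3 CPM with YEXX-2A and 671, 614 and 657 CPM with YWCH-4A (log2 change 5.07 with SE 0.07, adjusted p = 2.07e-17 by edgeR). Ass1, which remakes the arginine that Nos2 consumes, rose by 3.72, and Gch1, which starts synthesis of its cofactor, by 3.04. Ptgs2, or cyclooxygenase 2, rose by 2.66, the prostaglandin E synthase Ptges by 4.19 and the secreted phospholipase Pla2g2a by 4.44. Ptgs1, the constitutive cyclooxygenase, was not called (-0.05, interval -0.19 to 0.09). Of 12 complement and acute-phase genes 6 rose and 3 fell. Lcn2, a siderophore-binding lipocalin known as a marker of kidney injury, measured 19.1, 16.5 and 18.3 CPM with YEXX-2A and 339, 338 and 322 CPM with YWCH-4A (log2 change 4.21 with SE 0.06, adjusted p = 1.86e-17 by edgeR), and complement C3 rose by 2.48 and C1s by 1.24. Hsd11b1, which regenerates active glucocorticoid, rose by 2.78 (43.6, 43.2 and 43.2 CPM with YEXX-2A and 292, 300.03 and 299 CPM with YWCH-4A).

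Interferon-stimulated genes were mostly lower. Of 47 tested 28 fell with YWCH-4A, 15 of them at least 2-fold, 4 rose and 15 were not called (median -0.44). With library totals alone 9 were called higher. Mx2, an antiviral GTPase, measured 492, 517 and 498 CPM with YEXX-2A and 186, 180.2 and 174 CPM with YWCH-4A (log2 change -1.48 with SE 0.04, adjusted p = 1.78e-13 by edgeR). The vehicle libraries held 121 to 181 CPM, so the YEXX-2A libraries lay above both other groups. Isg15, a ubiquitin-like protein, measured 127, 116 and 115 CPM with YEXX-2A and 44.7, 39.6 and 43.2 CPM with YWCH-4A (log2 change -1.49 with SE 0.06, adjusted p = 6.68e-12 by edgeR). Rsad2, or viperin, was at -1.59, Ifit1 at -1.75, the RNA sensor Ifih1 at -1.18, Samd9 at -2.48 and the factor Irf7 at -0.59. Irf9 and Stat2, transcription factors of the interferon response, were not called (-0.11, interval -0.25 to 0.03, and -0.10, interval -0.20 to -0.01), though Stat2 was called lower without YEXX-2A replicate 2 (edgeR adjusted p = 0.0108). Mx and guanylate-binding protein genes have close copies, and their counts are uncertain where reads can be split. Of 33 promoters of this list 66.7% held the interferon response element (TTTC, any 2 bases, TTTC) on either strand, against 2.95% of all promoters. Ifit3 and Ifih1 are shown with the element in capitals.
Ifit3: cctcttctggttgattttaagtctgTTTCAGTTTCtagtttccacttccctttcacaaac
Ifih1: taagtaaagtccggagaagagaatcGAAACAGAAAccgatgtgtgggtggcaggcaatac
The Ifit3 stretch is chr1:241527257-241527316 on the plus strand and the Ifih1 stretch chr3:67683993-67684052 on the minus strand, in GRCr8, with the element starting at -44 and -59 (in Ifih1 it reads as its reverse complement).

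A smaller set of interferon-linked genes rose with YWCH-4A, those of antigen presentation. Of 24 genes 22 rose and 1 fell (median 0.69). Cd74, the invariant chain of MHC class II, measured 110.3, 105 and 108 CPM with YEXX-2A and 398, 414 and 405 CPM with YWCH-4A (log2 change 1.91 with SE 0.04, adjusted p = 6.17e-15 by edgeR), with the vehicle libraries at 92.2 to 122 CPM. The class II gene RT1-Da rose by 1.08, the class I genes RT1-A1 and RT1-A2 by 0.76 and 0.96 (RT1 genes are near-copies, so their split is uncertain), the immunoproteasome subunits Psmb9 and Psmb10 by 0.72 and 0.70, and the peptide transporter Tap1 by 0.67. Irf1, the factor that drives several of these genes and itself an NF-κB target, rose by 1.22 (77.7, 72.2 and 74.0 CPM with YEXX-2A and 176, 174 and 171 CPM with YWCH-4A), and Gbp5, an interferon-γ type gene, by 1.91, against the direction of the interferon list.

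Cholesterol synthesis genes fell with YWCH-4A in 21 of 24 cases and rose in none (median -0.62). Cyp51, the lanosterol demethylase, measured 913, 961 and 969 CPM with YEXX-2A and 318, 327 and 327 CPM with YWCH-4A (log2 change -1.55 with SE 0.04, adjusted p = 7.71e-14 by edgeR). The vehicle libraries, at 390.1 to 543 CPM, lay between the groups. Hmgcs1, which makes the precursor of mevalonate, was at -1.59, Idi1 at -1.70, and Insig1, which holds SREBP proteins in the ER, at -1.11. Srebf2, which encodes SREBP2 itself, was not called (-0.10, interval -0.19 to -0.0059) but was called lower without YEXX-2A replicate 2 (edgeR adjusted p = 0.0339). Fatty acid synthesis and desaturation genes fell for 12 of 20 genes and rose for 2 (1 when any library but YEXX-2A replicate 3 was left out), with the desaturases Scd (-1.10) and Fads2 (-0.86) among the falls. A list of cholesterol efflux genes and targets of the sterol receptor LXR was higher in 7 of 10 cases. Its member Ch25h, which makes the regulatory sterol 25-hydroxycholesterol and is not an efflux gene, measured 1.41, 0.681 and 1.07 CPM with YEXX-2A and 30.2, 25.7 and 25.2 CPM with YWCH-4A (log2 change 4.66 with SE 0.17, adjusted p = 4.16e-12 by edgeR). The efflux pump Abca1 rose by 1.37. A list of fatty acid oxidation genes and targets of PPAR receptors rose for 14 of 24 genes and fell for 2. Cpt1a, the gatekeeper of mitochondrial import, was at 0.91, and Angptl4, which is not an oxidation enzyme, at 3.56.

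Targets of ATF4 fell for 25 of 29 genes and rose for 1, 11 of them falling at least 2-fold (median -0.78). Atf4 itself measured 588, 626 and 632 CPM with YEXX-2A and 309, 311 and 316 CPM with YWCH-4A (log2 change -0.98 with SE 0.04, adjusted p = 1.65e-11 by edgeR). Trib3, a pseudokinase that marks this response, measured 92.2, 92.7 and 100.03 CPM with YEXX-2A and 20.2, 21.2 and 22.9 CPM with YWCH-4A (log2 change -2.15 with SE 0.06, adjusted p = 1.96e-13 by edgeR), and Chac1, which degrades glutathione, measured 55.6, 63.3 and 64.4 CPM with YEXX-2A and 13.1, 11.5 and 12.9 CPM with YWCH-4A (log2 change -2.28 with SE 0.08, adjusted p = 1.7e-12 by edgeR). The amino acid carriers Slc7a5 (-1.28), Slc3a2 (-0.76) and Slc1a4 (-1.14), asparagine synthetase Asns (-1.10) and the serine synthesis enzymes Phgdh (-0.92), Psph (-1.01) and Shmt2 (-0.74) fell together. So did 17 of 20 aminoacyl-tRNA synthetase genes (1 higher, median -0.58), none of them by 2-fold, with Lars1 at -0.97, Nars1 at -0.79 and Iars1 at -0.75. The single rise among ATF4 targets (2 without YEXX-2A replicate 2) was Cebpb, a C/EBP factor that inflammatory signals also induce, at 87.3, 84.9 and 87.4 CPM with YEXX-2A and 206, 202 and 211 CPM with YWCH-4A (log2 change 1.25 with SE 0.04, adjusted p = 9.89e-13 by edgeR). Ddit3, or CHOP, and Ppp1r15a, which reverses the translational block, were not called (-0.13, interval -0.27 to 0.02, and -0.02, interval -0.12 to 0.08). Glul, the glutamine synthetase gene, rose by 1.06. The core of the C/EBP-ATF response element, TGATGNAA on either strand, was in 23.1% of 26 promoters of this list and 1.87% of all. It is shown in capitals for Chac1 and Trib3, which fell at least 4-fold.
Chac1: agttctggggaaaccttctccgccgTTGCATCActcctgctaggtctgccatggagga
Trib3: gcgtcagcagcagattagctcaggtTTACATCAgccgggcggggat
These are chr3:126795939-126795996 (plus strand) and chr3:161275534-161275579 (minus strand) of GRCr8, and the core, read here as its reverse complement, begins at -167 and -21.

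Antioxidant genes under NRF2 fell for 21 of 32 genes and rose for 6, or 3 without YWCH-4A replicate 2 (median -0.41). Slc7a11, the cystine importer that feeds glutathione synthesis and a target of both ATF4 and NRF2, measured 69.1, 68.7 and 52.2 CPM with YEXX-2A and 6.43, 5.99 and 4.9 CPM with YWCH-4A (log2 change -3.45 with SE 0.14, adjusted p = 8.05e-09 by edgeR). Its lowest YEXX-2A library held over 8 times the level of its highest YWCH-4A library. Nqo1, a quinone reductase, measured 549, 552 and 623 CPM with YEXX-2A and 105, 106 and 110.2 CPM with YWCH-4A (log2 change -2.42 with SE 0.05, adjusted p = 6.17e-15 by edgeR). The ferritin light chain Ftl1 was at -0.95, Hmox1 at -0.69 and Nfe2l2, which encodes NRF2, at -0.64. Abcc1, a glutathione conjugate exporter counted in the same list, rose by 0.39, and Gclm, a glutathione synthesis subunit, was not called (-0.14, interval -0.37 to 0.09). Iron and zinc genes moved as well: the importers Slc11a2 and Slc39a14 rose by 1.67 and 1.08, and the transferrin receptor Tfrc fell by 0.90.

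**Figure D5:**
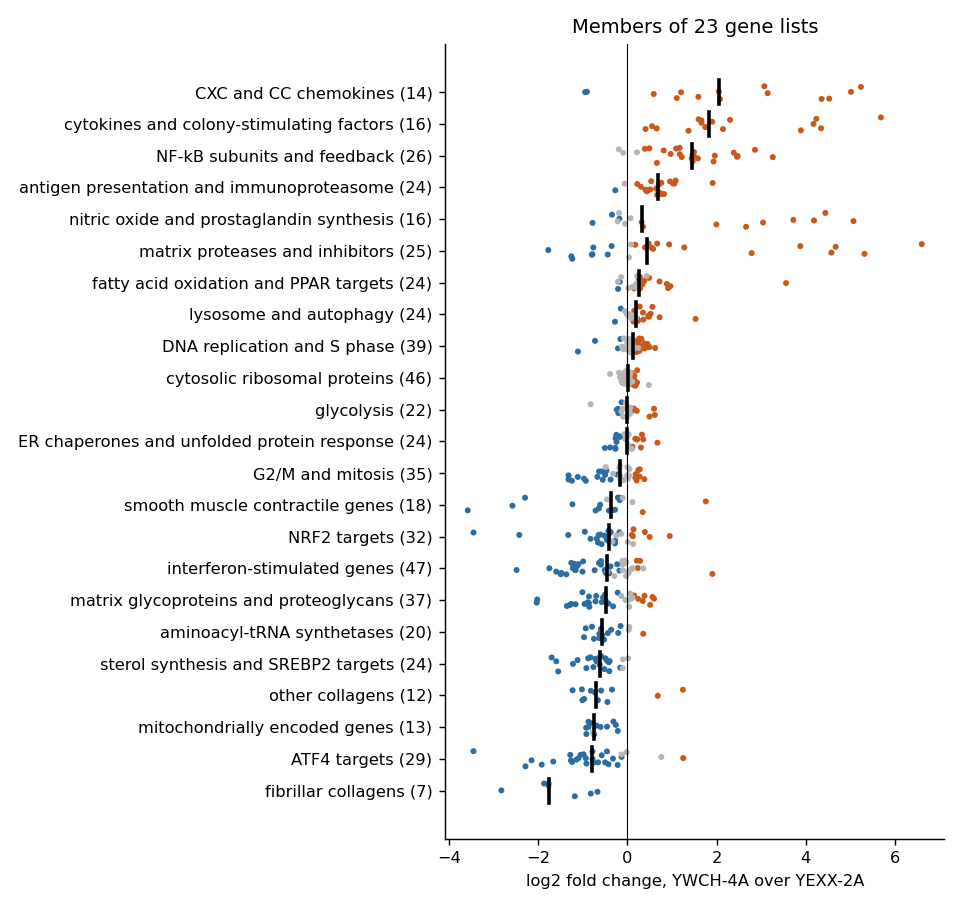
Log2 fold change of YWCH-4A over YEXX-2A (horizontal axis) for the tested members of 23 gene lists (number tested in brackets), with 1 point per gene coloured when called higher (orange) or lower (blue) and grey when not called, and a bar at the list median. Chemokine, cytokine and NF-κB lists lie to the right, fibrillar collagens and ATF4 targets to the left, and ribosomal protein and glycolysis genes near 0.

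Among housekeeping and growth genes, mitochondrially encoded genes were called lower in 12 of 13 cases and higher in none (median -0.74), with Mt-co3 at -0.92 and the most abundant, Mt-co1, at 15487, 16192 and 14503 CPM with YEXX-2A and 11061, 11636 and 10995 CPM with YWCH-4A. Nuclear genes of the same respiratory chain were called in 32.4% of 34 cases, 7 higher and 4 lower. Those counts depend on single libraries, being 12 higher without YEXX-2A replicate 1 and 9 lower without YEXX-2A replicate 3, and on the scaling, being 13 higher with library totals alone. Cytosolic ribosomal proteins were called in 13 of 46 cases (28.3%, against 51.5% of all genes), all higher and none by more than 0.22 (the value of Rpl11). Without YEXX-2A replicate 3, 8 of the 46 were called lower, and without YWCH-4A replicate 2, 2 were. With all 9 libraries in the fit 3 were called higher, and Rpl11 was not among them (edgeR adjusted p = 0.0771). Heat shock genes fell in 11 of 19 cases, Hspa9 by 0.86 and Hsp90aa1 by 0.91, and rose in none, although 1 was called higher without YEXX-2A replicate 2, without YEXX-2A replicate 3 or without YWCH-4A replicate 1, and 4 were with library totals alone or limma on FPKM. DNA replication genes were called at the rate of all genes (51.3% against 51.5%), 16 of 39 higher and 4 lower, with Mcm3 at 0.45 and Fen1 at 0.50. Mitosis genes were called in 60% of cases (against 51.5% of all genes), with 14 of 35 lower and 7 higher. With all 9 libraries in the fit 8 were lower and 3 higher. The condensin subunits Smc4 (-1.32) and Ncapg (-1.32) were lower. Aurkb (0.27) and Plk1 (0.19, not called with all 9 libraries, edgeR adjusted p = 0.0938) were higher. Cdk1 (-0.08, interval -0.18 to 0.02) and Ccnb1 (0.01, interval -0.09 to 0.12) were not called. Lysosome genes were higher for 14 of 24 genes and lower for 2 (1 without YWCH-4A replicate 2), led by Gpnmb (1.53).

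For 7338 genes (64.1% of those tested) the 95% interval of the difference lay inside 1.5-fold. Of these 3023 were nonetheless called, and the other 4315 are part of the 5553 genes not called. For the rest of those 5553 genes a difference of 1.5-fold lies within the interval. Abundant genes with narrow intervals included Tuba1b, an α-tubulin (-0.08, -0.17 to 0.02), Hspa5, the ER chaperone BiP (0.03, -0.06 to 0.12) and Axl, a receptor kinase (-0.03, -0.11 to 0.05). ER chaperone and unfolded protein response genes were near balance (8 higher and 9 lower of 24, median 0.001), and so were glycolysis genes (6 and 4 of 22, median -0.007). With library totals alone the counts were 11 higher for glycolysis and 5 lower for the ER genes.

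The vehicle libraries, which took no part in the test, place these differences. Among the 364 genes at least 2-fold higher with YWCH-4A, the vehicle mean was nearer on the log2(CPM + 0.5) scale to YEXX-2A for 313 and nearer to YWCH-4A for 51. Among the 426 at least 2-fold lower, the figures were 232 and 194, and over all 5903 called genes 2724 (46.1%) and 3179. Vehicle lay nearer to YEXX-2A for all 14 called chemokines, for 20 of 23 NF-κB genes, for 23 of 26 ATF4 targets and for all 7 fibrillar collagen gene models. Vehicle lay nearer to YWCH-4A for 24 of 32 called interferon-stimulated genes. Nearer did not mean equal. The vehicle mean lay above both compounds for 20 of the 26 ATF4 targets and for all 7 fibrillar collagen gene models. For NF-κB genes it lay between the compounds for 18 of 23 and below both for 5. For the 14 chemokines it lay below both for 6, between for 6 and above both for 2. For cholesterol synthesis genes, with 12 of 21 nearer to YWCH-4A, the division was about that of all called genes. These counts describe positions only, and the spread among vehicle libraries was not used in them.

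Some of the largest changes were in genes that were scarce in 1 group. Dnah17, a dynein heavy chain gene, and RGD1560281 had no read in the YEXX-2A libraries and 135 and 112 in the YWCH-4A libraries, and were at least 43.9-fold and 36.4-fold higher when set against 3 counts over the group. L1cam, an adhesion molecule, had 3 and 189 reads, a ratio of 61.4 (exact 95% interval 20.7 to 300), and the secreted phospholipase Pla2g5 3 and 166, a ratio of 53.9 (18.1 to 264). These intervals cover counting error only, since reads amplified by PCR are not independent molecules. With so few YEXX-2A reads, these genes passed the filter on low counts only through the YWCH-4A libraries. Their folds and intervals are therefore descriptions of genes picked as extremes. Hk3, a hexokinase, rose by 5.42 and Cd6 by 5.65. At the other end Aoc3, a cell-surface amine oxidase, measured 4.59, 5.76 and 5.34 CPM with YEXX-2A and 0.387, 0.16 and 0.193 CPM with YWCH-4A (log2 change -4.32 with SE 0.30). Aoc3 passed the filter on low counts only through the YEXX-2A libraries, so its values too are a description. Large falls were also seen in the vesicular glutamate transporter Slc17a6 (-4.20), the proteoglycan Epyc (-3.53), Wfdc1 (-3.39) and the immediate-early factor Fos (-3.06). The cholecystokinin receptor gene Cckar, at 30.1, 27.6 and 26.8 CPM with YEXX-2A and 4.4, 3.05 and 3.16 CPM with YWCH-4A, and the receptor phosphatase Ptprd (-2.58) fell as well.

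The genes were also grouped by the pathway terms deposited with the table. Leaving out disease terms, of 204 terms with 15 to 200 tested genes, the share of genes called higher was largest for viral protein interaction with cytokine and cytokine receptor (81.3%, 26 of 32), then beta-alanine metabolism (61.9%), cytokine-cytokine receptor interaction (59.5%, 66 of 111), the intestinal immune network for IgA production (59.1%) and hematopoietic cell lineage (58.1%). The share called lower was largest for steroid biosynthesis (68.8%, 11 of 16), then the worm longevity pathway (66.7%), protein digestion and absorption, a term that holds the collagens (65.6%, 21 of 32), glycine, serine and threonine metabolism (56.5%) and terpenoid backbone biosynthesis (52.4%). Terms share genes, and these shares are read against 25.4% and 26.1% for all genes.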

How the data were processed

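RNA-seq libraries were made from oligo(dT)-selected RNA with an NEBNext Ultra kit, per the labels' protocols. Per the file headers, the authors deposited for every library an estimated count and an FPKM for each gene, with pathway terms. A deposited table of group values was not used. StringTie 1.3.1, RSEM, DESeq2 and edgeR are named, without their roles, in the submitters' processing notes, and the aligner, genome build and annotation are not given in the sources used here. Non-whole values made up 9.03% of the nonzero counts, and counts were rounded. Multi-mapped reads may thus be split between gene copies.

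The 6 libraries were fitted in R 4.3.3 with edgeR 4.0.16 (filterByExpr with a minimum count of 10, TMM scaling, robust quasi-likelihood fit and F-test, Benjamini-Hochberg adjustment over 11456 genes, threshold 0.05). Standard errors are the log2 fold change over the root of F, and intervals are at 95%. DESeq2 1.42.0 and limma 3.58.1 (voom on counts, and limma-trend on log2(FPKM + 1) from the deposited FPKM) served as alternatives. On counts simulated for this comparison over 11465 genes, the fit recovered 92.5%, 97% and 100% of genes changed 1.5-fold, 2-fold and 4-fold. The simulation changed only a small set of well-counted genes and gave every gene and both groups the same spread. In the data far more genes differed and the groups differed in spread, so these rates need not hold there. Correlations of same-numbered libraries' deviations from their group means were -0.03, 0.09 and 0.08, so replicate numbers were not treated as pairs.

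The gene lists (1306 entries, 1268 of them found in the table) and the genes to name were chosen with earlier results of these data known, so they are descriptions and carry no test of their own. Named genes were a panel of fibrosis genes, the 15 largest non-overlapping rises and falls with a mean of at least 1 CPM, the 10 most abundant genes called at least 2-fold and, per list, called members with the smallest p, members moving against the majority, abundant members not called and called transcription factors. Chosen after their values were seen were Cald1, Ccnb1, Col4a1, Fbn1, Hsp90aa1, Id1, Idi1, Ifih1, Il1b, Il6r, Irf1, Irf7, Irf9, Mfap5, Mmp10, Mmp12, Mmp14, Nfe2l2, Nfkb1, Nfkb2, Plk1, Psmb9, Rela, Relb, Samd9, Sema3a, Sema3c, Sema3d, Slc1a4, Slc3a2, Smc4, Timp2, Timp3, Vcam1 and Vcan. Promoter sequences and gene starts are from RefSeq, assembly GRCr8, matched by symbol. Each motif was searched alone on both strands, so a stretch can hold matches to more than 1. Some genes are not reported here.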

Additional observations from a re-analysis of the deposited data

How the results depend on the processing

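Whether genes that changed at least 2-fold were called depended little on the processing, and small changes depended on it more. The balance of rises and falls at 2-fold was reversed with library totals alone or with limma on FPKM. Against 5903 called genes, DESeq2 called 5201, limma-voom 6425 and edgeR without a filter 5991. With all 9 libraries in the edgeR fit 3593 genes were called, 1858 higher and 1735 lower, 3574 of them among the 5903. Tested against a 1.5-fold change with glmTreat, 921 were called, 438 higher and 483 lower. Leaving out 1 library gave 4995 to 6311 genes (2424 to 3080 higher, 2570 to 3231 lower). The 790 genes called at least 2-fold became 334 with limma-trend on log2(FPKM + 1), where the pseudocount shrinks low genes, and 746 to 934 with 1 library left out. Of the 790, between 708 and 790 were still called under each alternative except glmTreat (654).

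With the replicate number as a block 6502 genes were called, and the numbers do not pair the libraries. With 3 libraries a group and doses that are not given, the comparison describes these cultures. No separate search for single outlying values was made, and the weight of each library was seen only by leaving it out. Genes with fewer than about 10 counts were not tested, and for those at 0 in a group only a lower bound of the fold can be given.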

Other observations

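Genes of other signalling families also included large differences, and their counts are read against 25.4% higher and 26.1% lower over all genes. Among bone morphogenetic protein genes 7 of 15 rose and 4 fell. Bmp2, which opposes TGF-β in many kidney models, measured 50.2, 46.0 and 39.0 CPM with YEXX-2A and 199.9, 188 and 179 CPM with YWCH-4A (log2 change 2.06 with SE 0.08, adjusted p = 2.71e-09 by edgeR), and Bmp6 rose by 1.19, whereas Bmp4 fell by 0.97. The transcriptional targets Id3 and Id1 rose by 0.41 and 0.30 (Id1 was not called with all 9 libraries in the fit, edgeR adjusted p = 0.0565), and the antagonist Grem1 by 0.53. Wnt regulators fell in 8 of 14 cases and rose in 3. The secreted inhibitor Sfrp4 measured 76.7, 80.9 and 81.2 CPM with YEXX-2A and 17.9, 18.4 and 19.0 CPM with YWCH-4A (log2 change -2.11 with SE 0.06, adjusted p = 1.76e-13 by edgeR), Wnt4, which kidney fibroblasts express in fibrosis, was at -1.48 and the target Apcdd1 at -1.39, and Wnt5a rose by 0.96. Growth factors and their receptors divided into 8 rises and 12 falls among 26, the rises at about the share of all genes. The platelet-derived growth factor receptors Pdgfra and Pdgfrb rose by 0.66 and 0.67 while their ligand Pdgfc fell by 1.25, and Hbegf, an EGF receptor ligand, fell by 1.26.

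Guidance genes included 12 falls and 9 rises among 28. The semaphorins Sema3c (-2.29), Sema3a (-2.29) and Sema3d (-2.13) fell, and Sema7a, which binds integrins, rose by 0.90, as did the semaphorin receptor Plxnd1, at 51.3, 49.3 and 50.2 CPM with YEXX-2A and 146, 145 and 150.3 CPM with YWCH-4A (log2 change 1.55 with SE 0.05, adjusted p = 2.31e-13 by edgeR). Sema3c measured 152, 197 and 139 CPM with YEXX-2A and 34.2, 34.8 and 30.5 CPM with YWCH-4A, and the groups did not overlap for either gene. All 10 glucocorticoid-linked genes were called, 7 of them lower, among them Fkbp5 (-0.36), Sgk1 (-0.55) and Zbtb16 (-0.99), while Hsd11b1 stood at 2.78 in the opposite direction. Hypoxia response genes had no common direction, with 5 of 18 higher and 7 lower (4 lower with library totals alone). The oxygen sensor Egln3 measured 45.3, 41.1 and 52.0 CPM with YEXX-2A and 222, 211 and 214 CPM with YWCH-4A (log2 change 2.23 with SE 0.07, adjusted p = 5.44e-12 by edgeR), and the hypoxia target Ca9 fell by 1.04. Of 18 p53 targets and cell cycle inhibitors 3 rose (6 with library totals alone) and 7 fell. Among them the death receptor Fas rose by 2.07, and the growth arrest genes Gadd45g and Gadd45a fell by 2.02 and 1.05. Transcription factors of mesenchymal cells were called less often than all genes (44.4% of 18 against 51.5%), with 2 higher, 6 lower and 10 not called. Among those called Snai2 and Scx fell by 1.70 and 1.10, and Twist2 rose by 1.09.

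Aldh18a1, the first enzyme of proline synthesis, had estimated levels that jumped between replicates, with 0, 76.9 and 2.97 CPM with YEXX-2A and 45.8, 56.6 and 36.3 CPM with YWCH-4A. It was not called (log2 fold change 0.76), but without YEXX-2A replicate 2 its log2 fold change was 5.33 with an edgeR adjusted p of 0.0182.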
